A study of Mus musculus with 6 samples.

Results

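The genes described here are 10 genes that mark amacrine and horizontal cells, the interneurons of the inner and outer retina: Pax6, Tfap2a, Tfap2b, Lhx1, Onecut1, Prox1, Gad1, Gad2, Slc6a9 and Calb1. They were taken as a fixed list of names, 10 of the 21938 protein-coding genes of the GENCODE annotation on chromosomes 1 to 19, X and Y of GRCm38. Their loci, each being the gene body with 20 kb on either side joined with 2.5 kb around every transcription start site (TSS), held 24 of the 39942 regions in which histone H3 acetylated at lysine 27 (H3K27ac) was called in at least 1 sample. H3K27ac, a mark of active promoters and enhancers, was mapped by ChIP-seq in bulk retina of WT mice that were 3 months old at the first pressure elevation. In the 4xIOP group (3 samples) the intraocular pressure of 1 eye had been raised to 30 mmHg for 1 h, 4 times at intervals of 2 weeks, and the control group (3 samples) was the untreated contralateral eye. Retinas were taken on day 2 after the 4th elevation. The treatment text that all samples share also describes injection of dasatinib or vehicle, and the labels do not say whether these animals received either. The contralateral eye is an eye of a treated animal, and no eyes of untreated animals were profiled here. Each sample is represented by its own list of peaks, so the list is the replicate (n = 3 for each group).

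The name carried inside a list was that of the other group in 4 of the 6 lists (control replicates 1 and 2, and 4xIOP replicates 1 and 2). It matched the label in control replicate 3 and 4xIOP replicate 3. Groups are given as labelled throughout, and every direction between them holds for the groups as labelled. Between the 2 lists whose names match there is 1 sample in each group and hence no test. The lists held 19913 to 36509 peaks in control and 16195 to 20804 in 4xIOP. They covered 8.92 to 20.1 Mb in control and 6.66 to 10.4 Mb in 4xIOP, the largest being control replicate 3. The background of a list, recovered from its fold and p values, was 99.6 to 173 fragments in 10 kb in control and 87.4 to 135 in 4xIOP. At that background a summit needed 9 to 12 fragments to be called, or 3.55 to 4.97 times the genome mean, and more where the local background was higher. A gene without a peak was therefore not shown to lack acetylation. The shortest peak of a list, a proxy for its fragment length, was above 200 bp in control replicate 1 and in the first and second 4xIOP lists, and below it in the remaining 3.

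Amacrine cells shape the output of bipolar cells in the inner plexiform layer, mostly by releasing GABA or glycine, while horizontal cells feed back onto photoreceptors in the outer plexiform layer. Both are born from progenitors that express the bHLH factor Ptf1a, and both depend on AP-2 transcription factors. Pax6 is a paired-box and homeodomain factor needed in retinal progenitors and kept on in mature amacrine, horizontal and ganglion cells. Tfap2a and Tfap2b encode AP-2 factors of amacrine and horizontal cells. Onecut1 and Prox1 act in the making of horizontal cells, and Lhx1 places them in their layer. Gad1 and Gad2 encode the enzymes that make GABA, Slc6a9 encodes GlyT1, the glycine transporter of glycinergic amacrine cells, and Calb1 encodes calbindin, a calcium-binding protein abundant in horizontal cells. In whole retina these neurons are greatly outnumbered by rods, so fewer cells carrying the mark and less of the mark in each cell cannot be told apart.

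The acetylated sequences that the results turn on are shown here. They are windows of 201 bp around the highest summit of a region, read from the plus strand of GRCm38, in lower case with matches to the AP-2 motif (GCCNNNGGC) and the E-box CAGCTG in capitals. The AP-2 letters were searched because 2 of the 10 genes encode AP-2 factors, and the E-box because bHLH factors act in these cells. The first is from the promoter region of Slc6a9 shared by 4 lists (window chr4:117834814-117835014) and the next is from its promoter region of highest fold (chr4:117836033-117836233). The region 20.0 kb upstream of Slc6a9 was called in all 6 lists (window chr4:117814383-117814583). The region 4.54 kb upstream of Prox1 was called in every control list and no 4xIOP list (window chr1:190175062-190175262). The Tfap2a region spans an exon boundary within the gene (window chr13:40723265-40723465), and the Lhx1 region lies downstream of that gene beside the start of its neighbour Aatf (window chr11:84513778-84513978).
Slc6a9 promoter, 4 lists: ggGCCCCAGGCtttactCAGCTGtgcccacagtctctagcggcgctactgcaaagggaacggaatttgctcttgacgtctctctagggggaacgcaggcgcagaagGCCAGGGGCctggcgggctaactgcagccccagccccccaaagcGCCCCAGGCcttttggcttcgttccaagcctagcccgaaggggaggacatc
Slc6a9 promoter, highest fold: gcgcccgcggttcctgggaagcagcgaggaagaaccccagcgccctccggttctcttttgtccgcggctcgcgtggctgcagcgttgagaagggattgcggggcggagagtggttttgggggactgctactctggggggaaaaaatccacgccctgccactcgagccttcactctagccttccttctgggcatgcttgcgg
Slc6a9 upstream: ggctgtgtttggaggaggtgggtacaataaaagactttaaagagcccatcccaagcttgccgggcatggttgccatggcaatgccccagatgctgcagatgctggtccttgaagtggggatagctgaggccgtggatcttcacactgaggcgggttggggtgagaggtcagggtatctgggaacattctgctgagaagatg
Prox1 upstream: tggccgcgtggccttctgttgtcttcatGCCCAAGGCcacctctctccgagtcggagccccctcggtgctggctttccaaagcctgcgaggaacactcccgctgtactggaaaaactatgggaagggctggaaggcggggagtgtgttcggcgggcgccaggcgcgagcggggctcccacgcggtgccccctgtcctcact
Tfap2a internal: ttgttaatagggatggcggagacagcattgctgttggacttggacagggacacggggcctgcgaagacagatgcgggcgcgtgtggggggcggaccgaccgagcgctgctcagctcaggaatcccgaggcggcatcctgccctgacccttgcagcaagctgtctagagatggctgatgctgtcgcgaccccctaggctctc
Lhx1 downstream: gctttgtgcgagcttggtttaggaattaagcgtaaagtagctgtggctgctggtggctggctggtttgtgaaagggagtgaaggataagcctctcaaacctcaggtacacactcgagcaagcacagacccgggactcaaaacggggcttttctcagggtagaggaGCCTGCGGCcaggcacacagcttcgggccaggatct
The Slc6a9 promoter window carries 3 AP-2 matches and 1 E-box, and the Prox1 and Lhx1 windows carry 1 AP-2 match each. A match describes these letters only and does not show that a factor binds.

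H3K27ac was called in the locus of 5 of the 10 identity genes in at least 1 list, and at the promoter of 4 of them. The glycine transporter gene was the single one with a promoter peak in every list. The promoter of Slc6a9 was overlapped by a peak in all 6 lists, which held for 39.5% of all protein-coding genes. For 6 of the 10 genes (Pax6, Tfap2b, Lhx1, Onecut1, Gad1 and Calb1) no list had a peak within 2.5 kb of any TSS, against 42.4% of all genes. For 5 of them (Pax6, Tfap2b, Onecut1, Gad1 and Calb1) no list had a peak anywhere in the locus, against 29.0% of all genes. These shares over 10 genes are a description and were not tested against those of all genes. Gad2, Tfap2a and Prox1 lay between, with a promoter peak in 1, 1 and 2 lists. No difference was called between 4xIOP and control at any identity gene.

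**Figure D1:**
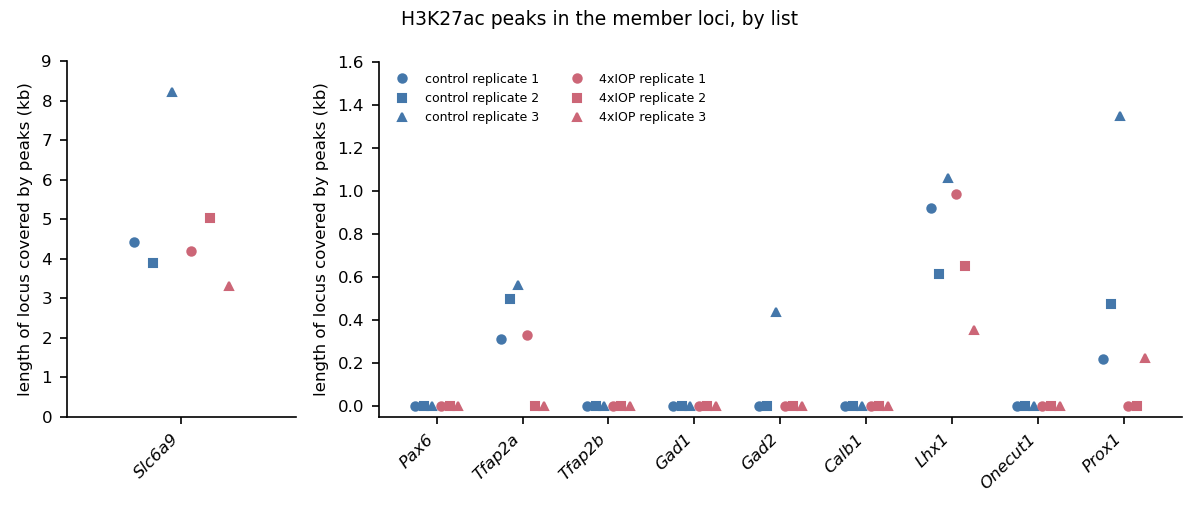
Length of each locus (gene body with 20 kb on either side, y axis, kb) covered by peaks in each of the 3 control and 3 4xIOP lists; each point is 1 list, and Slc6a9 has its own scale. Slc6a9 was covered by 3304 to 8237 bp, Lhx1 by 353 to 1059 bp, and Pax6, Tfap2b, Gad1, Calb1 and Onecut1 by none.

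Among the transcription factors, Pax6 (chr2:105668900-105697364, plus strand) had no peak in its locus in any list although the annotation gives it 8 start sites. Its nearest peak was 112 to 114 kb away. The region at chr2:105554406-105554902, upstream of Pax6 and outside the body of any protein-coding gene, was called in all 6 lists. Its summit held 18, 24 and 14 fragments in the control lists and 20, 24 and 21 in the 4xIOP lists, and its fold over local background was 5.95, 5.71 and 4.32 against 6.97, 8.01 and 6.17. The fragment counts of the groups overlapped, while each 4xIOP fold was higher than each control fold. By rank of fold, 4.31% of the 10529 regions called in all 6 lists were higher in every 4xIOP list and 4.05% lower. In the limma fit over these regions its rank score differed by 1.14 ± 0.42 (SE), with an unadjusted p of 0.0141 and a Benjamini-Hochberg adjusted p of 1.00. The region lay outside the locus as defined and was picked after its values were seen.

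Tfap2b (chr1:19208914-19238576, plus strand) lay farther from any peak than the other 9 genes. In 4 lists its nearest peak was 1678 to 1679 kb downstream, at the start of Paqr8. Its median distance over the 6 lists exceeded that of 97.7% of all genes, whose median distance was 5.85 kb. The distance was over 100 kb for 24.6% of all genes. Onecut1 (chr9:74861921-74891781, plus strand) had its nearest peak 90.4 to 90.5 kb downstream in every list, at the start of Fam214a. That region, called in all 6 lists, had folds of 6.31, 6.79 and 8.13 at the highest summit of the control lists, against 4.59, 4.68 and 5.61 for 4xIOP, each 4xIOP list being lower than each control list. Its rank score differed by -0.73 ± 0.36 (SE) in the same limma fit, in the direction opposite to the region upstream of Pax6, with an unadjusted p of 0.0562 and an adjusted p of 1.00. It too lay outside the locus and was picked after its values were seen.

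**Figure D2:**
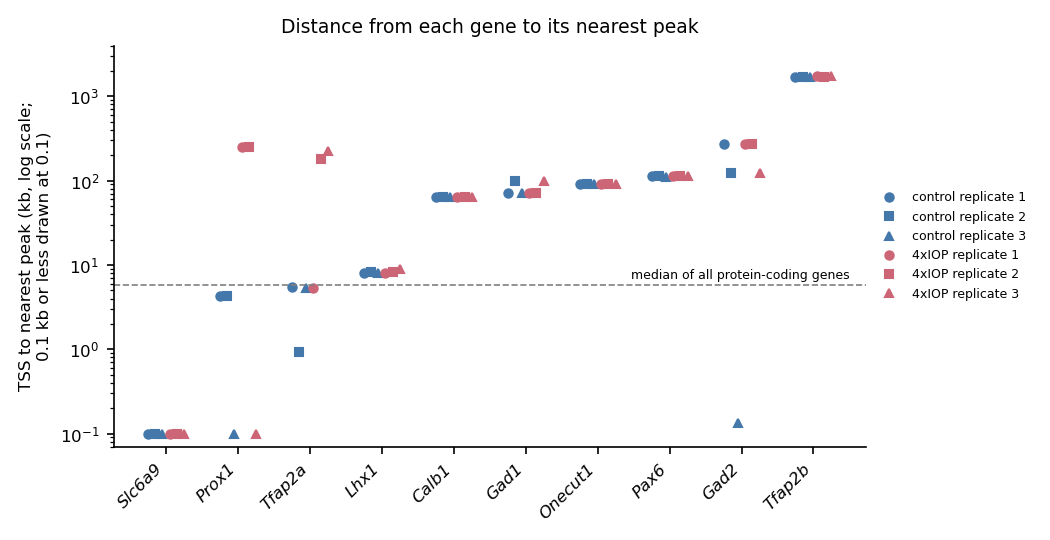
Distance from the nearest TSS of each identity gene to the nearest peak (kb, log scale, with distances of 0.1 kb or less drawn at 0.1), 1 point for each of the 3 control and 3 4xIOP lists, genes ordered by their median. Slc6a9 sat at its peaks in every list, Prox1, Tfap2a and Gad2 moved by over 100 kb between lists, and Calb1, Onecut1 and Pax6 had nearly the same distance in all lists.

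Tfap2a (chr13:40715302-40738376, minus strand) held a region 5.55 kb into the gene from its nearest start site, at chr13:40723192-40723596, which overlaps an exon and the start of the antisense RNA Gm47061. The region was called in 3 control lists and in 1 4xIOP list. Its summit held 13, 19 and 33 fragments in control and 15 in the first 4xIOP list and the fold was 3.51, 3.90 and 6.30 against 4.59. A peak at a Tfap2a promoter, at chr13:40731365-40731583, was called in control replicate 2 alone, with 17 fragments and a fold of 3.35. Peaks covered 311, 496 and 564 bp of the locus in control and 331, 0 and 0 bp in 4xIOP. The first 4xIOP list thus lay inside the control range.

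Lhx1 (chr11:84518284-84525535, minus strand) had no promoter peak, and both regions in its locus lay downstream of it, at the start of Aatf. The region at chr11:84513002-84513545 was called in all 6 lists, with 22, 25 and 50 fragments in control and 21, 13 and 17 in 4xIOP. The region at chr11:84513698-84514227, the sequence shown above, was called in 5 lists, with 29, 28 and 47 fragments in control and 22 and 30 in 4xIOP replicates 1 and 2. Both lie within 2.5 kb of the Aatf TSS, so they cannot be assigned to Lhx1 from position. The fold of the first was 5.99, 5.16 and 9.05 in control and 5.13, 3.37 and 4.72 in 4xIOP, each 4xIOP list being lower than each control list, as also by rank, for which the share of all shared regions was the 4.05% given above.

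Prox1 (chr1:190118035-190170714, minus strand) was the identity gene with a region called in every list of 1 group and none of the other. The region at chr1:190174972-190175531 lies upstream of Prox1 in the body of the antisense RNA Prox1os and more than 2.5 kb from any TSS. Its summit held 22, 25 and 36 fragments in control, with a fold of 2.78, 2.84 and 3.17. These folds ranked at the 10.9th, 14.6th and 25.3rd percentile of their lists, so the peaks were among the lower ones by fold in each. Of all 39942 regions, 1.05% were called in every control list and no 4xIOP list, and 0.0150% in every 4xIOP list and no control list. At the Prox1 promoter itself a peak was called in control replicate 3 (36 fragments, fold 2.64) and in 4xIOP replicate 3 (20 fragments, fold 3.13). Control replicate 3 also had a pair of small peaks over Prox1 exons, with 23 and 26 fragments. Covered length of the locus was 220, 475 and 1347 bp in control and 0, 0 and 222 bp in 4xIOP, and the groups overlapped by the last 4xIOP list.

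For the GABA enzymes, Gad1 (chr2:70553072-70602014, plus strand) had no peak in its locus. The nearest was 70.6 to 71.4 kb downstream in 4 lists and 98.0 to 98.1 kb downstream, at the start of Gorasp2, in control replicate 2 and 4xIOP replicate 3. Gad2 (chr2:22622205-22693874, plus strand) had peaks in control replicate 3 alone. The peak over its start, chr2:22622337-22622584, held 17 fragments with a fold of 4.80, and a further peak 1.59 kb into the gene held 15 fragments with a fold of 4.03. In the other 5 lists the nearest peak was 123 to 273 kb away. Control replicate 3 was the list with the most peaks, so the single call at Gad2 came from the list that called most. Calb1 (chr4:15881264-15908064, plus strand) had its nearest peak 63.6 to 63.7 kb downstream in every list, at the start of Decr1. In the limma fit the shared regions at Gorasp2 and Decr1 had score differences of 0.028 ± 0.31 and 0.12 ± 0.40 (SE), both with an adjusted p of 1.00.

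Slc6a9 (chr4:117834506-117875198, plus strand) held 13 of the 24 regions, 5 of them called in all 6 lists. Peaks covered 4432, 3885 and 8237 bp of its locus in control and 4205, 5033 and 3304 bp in 4xIOP. The covered share of the locus ranked between the 96.6th and 98.6th percentile of all protein-coding genes in each list. The 5 regions called in all lists lay 20.0, 10.2 and 4.33 kb upstream of the first TSS and 48.8 and 57.9 kb downstream of it. Of the 13 regions, 7 were within 2.5 kb of the start of another coding gene (Ccdc24, B4galt2, Atp6v0b or Dph2), the 2 farthest downstream among the shared regions included. The regions 20.0 and 4.33 kb upstream were the only ones called in all 6 lists that lay over 2.5 kb from any annotated TSS in the 10 loci.

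At the Slc6a9 promoter the peak of highest fold in each list held 49, 60 and 108 fragments in control and 50, 47 and 45 in 4xIOP. In 5 lists it lay in the region chr4:117835229-117836355. That region was not called in 4xIOP replicate 2, whose value is from the promoter region chr4:117834738-117835098, so the lists do not all measure the same peak. The high value was control replicate 3, while control replicate 1 lay inside the 4xIOP range. As a multiple of the genome mean of each list this was 22.4, 17.7 and 43.7 times in control and 24.9, 22.1 and 17.5 times in 4xIOP. The fold over local background was 3.01, 3.43 and 3.94 in control and 3.19, 2.94 and 4.04 in 4xIOP. By fragments these peaks ranked between the 85.3th and 96.7th percentile of their lists, and by fold between the 14.9th and 48.7th. The window over which the local background was taken, and whether an input was used, are not known here. Why these peaks ranked lower by fold than by fragments was not tested.

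**Figure D3:**
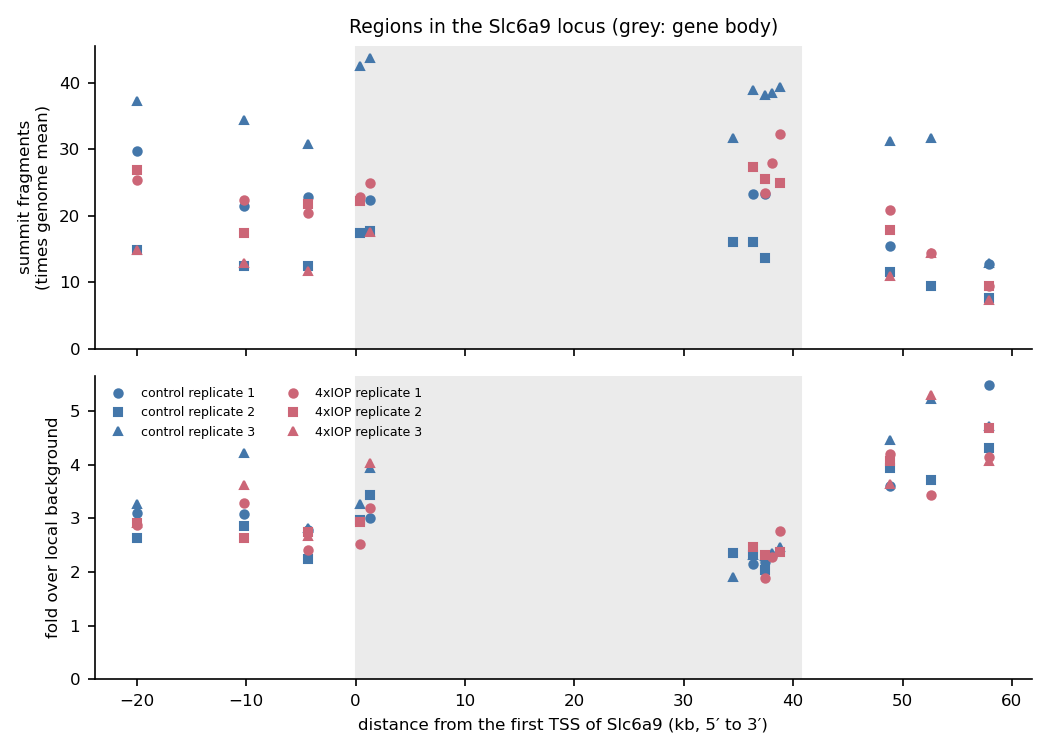
Regions in the Slc6a9 locus by distance from its first TSS (kb, x axis), with summit fragments as a multiple of the genome mean of each list above and fold over local background below; points are the 3 control and 3 4xIOP lists, and the grey band is the gene body. Fragments stayed above 7.4 times the genome mean in every called peak, and fold was lowest near the 3′ end, around the start of Ccdc24.

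The upstream regions of Slc6a9 were called in all lists as well. At the region 20.0 kb upstream (chr4:117814172-117814928) the summit held 65, 50 and 92 fragments in control and 51, 57 and 38 in 4xIOP. At the region 4.33 kb upstream (chr4:117829776-117830586) it held 50, 42 and 76 against 41, 46 and 30. The folds were 3.10, 2.64 and 3.27 against 2.89, 2.92 and 2.90 for the first, and 2.79, 2.25 and 2.82 against 2.41, 2.75 and 2.67 for the second. At the region 10.2 kb upstream, beside a pseudogene, the summit held 47, 42 and 85 fragments against 45, 37 and 33. In each of the 3 regions the groups overlapped in fragments and in fold.

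**Figure D4:**
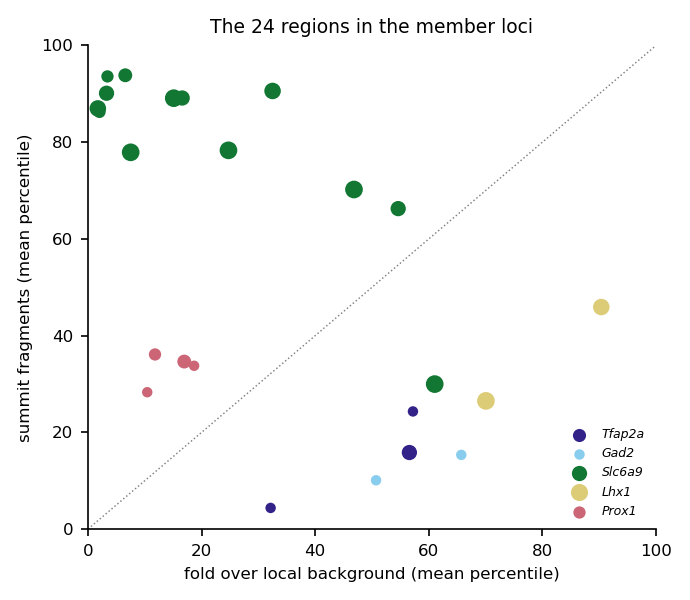
The 24 regions in the 10 loci by mean percentile of fold (x axis) and of summit fragments (y axis) among the peaks of their lists; a larger dot was called in more lists, and the dotted line marks equal percentiles. Of the 13 regions of Slc6a9, 12 lay higher by fragments than by fold and the one farthest downstream lay lower, while regions of Tfap2a, Gad2 and Lhx1 lay lower by fragments than by fold.

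Over the 24 regions of the 10 loci, 6 lay at promoters, 5 in introns, 4 over exons, 4 upstream and 5 downstream. Of these regions, 6 (25.0%) were called in all 6 lists and 6 in a single list, against 26.4% and 37.4% of all regions. In windows reaching 150 bp to either side of the summit, AP-2 letters occurred in 8 of 24 regions (33.3%, against 20.1% of all regions) and the E-box in 6 (25.0%, against 19.3%). The Onecut letters ATCAAT occurred in 1 region (5.14% of all regions), the Crx/Otx letters GGATTA in 2 (8.76%), and the homeodomain letters TAATTA and the CRE TGACGTCA in 0 (3.67% and 0.406%). All were searched on both strands. With 24 regions, 13 of them at 1 gene, these shares are a description.

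Promoters of high CpG content carry H3K27ac in many cell types, so the marks were set beside base composition. Of the 9 genes with a promoter entry in RefSeq (GRCm38, 300 bp), 6 had at least 1 CpG-rich entry (GC of at least 50% and observed to expected CpG of at least 0.6): Pax6, Tfap2a, Gad1, Lhx1, Onecut1 and Prox1. None of these 6 was marked in all 6 lists. Of 8297 genes with a CpG-rich promoter, 67.6% were marked in all 6 lists and 10.4% in none. Slc6a9, which was marked in all 6 lists, had no CpG-rich entry among 3, and of 8242 genes without a CpG-rich entry 14.8% were marked in all 6 lists. The GC content of the Slc6a9 entries was 59.0% to 60.7%, and their observed to expected CpG was 0.294 to 0.542. The class was read from the RefSeq entries, whereas the mark was read within 2.5 kb of any GENCODE TSS, of which Slc6a9 has 4. Observed to expected CpG of the marked regions themselves was not measured. Slc6a9 is therefore not shown to be marked at a CpG-poor sequence.

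A wider list of 40 other amacrine and horizontal genes was read in the same way. The promoter was marked in all 6 lists for 6 genes, in no list for 28 and in some lists for 6. By fold percentile, the 3 highest of those marked in all lists were Nr4a2 (84.8), encoding a nuclear receptor of a subset of amacrine cells, Tcf4 (62.9), a bHLH partner, and Gjd2 (55.8), encoding the gap junction protein connexin 36. The others were Sept4, Meis2 and Neurod1. Those marked in no list included the factor genes Ptf1a, Foxn4, Neurod6, Barhl2, Sox2, Ebf3, Tfap2c, Tfap2d, Onecut2, Onecut3 and Lhx9. They also included the transmitter genes Slc32a1 (GABA), Slc6a5 (glycine), Chat, Slc18a3 and Slc5a7 (acetylcholine), Th (dopamine) and Slc17a8 (glutamate). Further genes marked in no list were Calb2, Npy, Sst, Tac1, Nos1, C1ql2, Gja10 and Lamp5. Several had peaks elsewhere in the locus in all 6 lists, among them Slc32a1, Onecut3, Lhx9, Ebf3, Nos1 and Gja10, but not at the promoter. Whether these peaks lie at the start of a neighbouring gene was not examined, so they cannot be assigned to these genes. Of the 40 genes, 19 had no peak in the locus in any list, against 29.0% of all protein-coding genes.

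**Figure D5:**
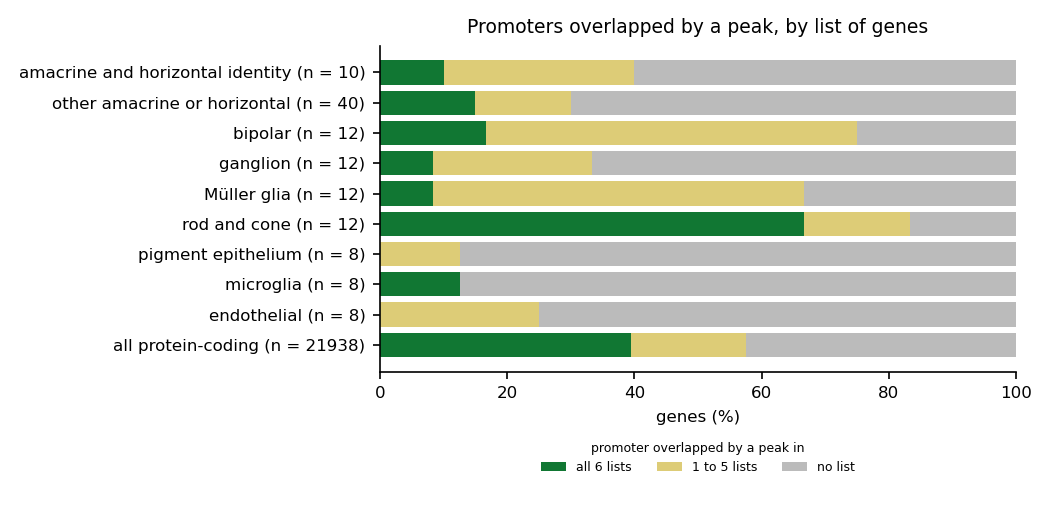
Share of genes (%, x axis) whose promoter (2.5 kb on either side of a TSS) was overlapped by a peak in all 6 lists, in 1 to 5 lists or in no list, for the 10 identity genes, 40 other amacrine or horizontal genes, marker lists of other retinal cell types, and all 21938 protein-coding genes. Rod and cone genes had the largest share marked in all 6 lists, 8 of 12.

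The labelled tissue was checked on markers of the other cells of a retina. Of 12 rod and cone genes 8 were marked in all 6 lists, as were 2 of 12 bipolar, 1 of 12 ganglion and 1 of 12 Müller glia genes. Of 8 pigment epithelium and 8 endothelial genes, 0 were marked in all 6 lists, and of 8 microglia genes 1 was. The ganglion cell factors Pou4f1, Pou4f2 and Pou4f3 were marked in no list. In no list were the promoters of 8 of 12 ganglion, 3 of 12 bipolar, 4 of 12 Müller glia and 2 of 12 rod and cone genes marked, nor those of 7 of 8 pigment epithelium, 7 of 8 microglia and 6 of 8 endothelial genes.

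The comparison of 4xIOP with control asked whether recurring pressure elevation changed acetylation at these genes. The number of identity genes with a marked promoter was 1, 2 and 3 in control and 1, 1 and 2 in 4xIOP (2.0 ± 1.0 against 1.33 ± 0.577, SD, n = 3). Of all protein-coding genes, 46.2% to 56.9% had a marked promoter in control and 44.6% to 47.4% in 4xIOP. With equal numbers of peaks the difference in identity genes went from -0.667 to 0.333. Those with any peak in the locus numbered 4, 4 and 5 in control and 3, 2 and 3 in 4xIOP, and these did not overlap. Over all genes, 13304 to 15350 loci held a peak in control and 12976 to 13520 in 4xIOP. The total covered length was 5883, 5467 and 11642 bp in control and 5519, 5685 and 3879 bp in 4xIOP (7664 ± 3451 against 5028 ± 998 bp, SD, n = 3), and the 4xIOP lists overlapped with control replicates 1 and 2. Without control replicate 3 the difference fell from -2636 to -647 bp. Without Slc6a9 the totals were 1451, 1582 and 3405 bp in control and 1314, 652 and 575 bp in 4xIOP (2146 ± 1092 against 847 ± 406 bp, SD, n = 3), each 4xIOP list being lower than each control list. This was chosen after seeing the data, and it has no test. The covered length of whole control lists was 13.3 ± 5.99 Mb (SD, n = 3), that of whole 4xIOP lists was 9.06 ± 2.08 Mb, and these overlapped. With the same number of top peaks (16195) taken from each list, the difference in total covered length over the 10 loci was -845 bp.

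No identity gene had a covered length that was lower, or higher, in every 4xIOP list than in every control list, while 10.3% of the 15583 loci with a peak in at least 1 list were lower and 0.0449% were higher. To take out the difference in called length, the covered percent of each locus was ranked within its list, turned into normal scores and tested with limma over these 15583 loci. The score difference (4xIOP minus control) was -0.47 ± 0.25 (SE) for Tfap2a and -0.48 ± 0.23 for Prox1, and 0.087 ± 0.18 and 0.0039 ± 0.22 for Slc6a9 and Lhx1. Leaving out 1 list moved Tfap2a between -0.69 and -0.27 (the latter without control replicate 2) and Prox1 between -0.70 and -0.36, and both turned positive with a stricter q. Each of these loci was at 0 bp in 2 of the 3 4xIOP lists (Tfap2a in replicates 2 and 3, Prox1 in replicates 1 and 2), where the score is that of tied zeros. Gad2 passed the filter through control replicate 3 alone and was at 0 bp in the other 5 lists, so its score difference is set by the rank of tied zeros and is not read here. The Benjamini-Hochberg adjusted p from limma was 0.90 for Tfap2a and Prox1, 0.950 for Slc6a9 and 0.999 for Lhx1. The limma test called 0% of all loci, and 261 higher and 494 lower loci had an unadjusted p under 0.05. All loci had a median score difference of 0.039.

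Of the 10529 regions called in all 6 lists, 6 were in the 10 loci, 5 at Slc6a9 and 1 at Lhx1. Their fold was ranked and tested in the same way with limma, which called 0% of the regions at an adjusted p of 0.05, with 166 higher and 178 lower at an unadjusted p under 0.05. The Lhx1 region beside Aatf had a score difference of -0.94 ± 0.37 (SE), with an unadjusted limma p of 0.0191 and an adjusted p of 1.00. Without 4xIOP replicate 2 it was -0.57, with an unadjusted limma p of 0.163. The 5 Slc6a9 regions had score differences from -0.11 to 0.16, with SEs of 0.27 to 0.32, and adjusted limma p-values of 1.00. A difference in acetylation at the glycine transporter gene was not detectable between the groups at this depth, with 3 lists in each.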

How the data were processed

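H3K27ac ChIP-seq peak lists of 6 bulk retina samples (3 control, 3 4xIOP, as labelled) were analysed. The deposited lists hold 10 columns. The fold over local background is a ratio made by the authors, each summit has a p-value and a q-value, both deposited on the −log10 scale, and the integer score was deposited beside them and was not used. The intervals and summit offsets are also the authors'. The submitters' processing notes name STAR 2.7.8a, MACS2, HOMER, edgeR, bedtools 2.29.2 and mm10, with no role given. Coordinates are GRCm38, and 0 peaks ended past a chromosome. The lists state no read counts. Fragments at a summit and the background were recovered from fold and p, and returned the deposited p within 0.001 for at least 99.99% of peaks. Fold and p are set within a library, so they were used as ranks between libraries.

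Genes came from GENCODE vM21 (basic), and a promoter was marked if 1 bp of a peak lay within 2.5 kb of a TSS. Peaks of all lists were merged into regions. Covered percent of loci and fold of shared regions were turned into normal scores of ranks within a list and tested with limma 3.58.1 (R 4.3.3, Benjamini-Hochberg threshold 0.05), after a test on simulated data. No covariate was used. Genes named are the 10 members, and by rule the 3 highest, the unmarked and any called among 40 other amacrine or horizontal genes. A few genes that the rule would name are not reported here. Naming the remaining marked genes, the nearest peaks and the background genes came after values were seen. The members, lists and motifs were chosen with earlier results of these data known. RefSeq promoter entries (GRCm38) were found for 9 of 10 members, Calb1 excepted. The study prepared chromatin from single mouse eyes and states a number of biological replicates for H3K27ac that differs from the 3 labelled lists a group used here, while the labels do not say which eyes came from the same animal. Deviations of same-numbered lists correlated at -0.03, -0.10 and -0.25, and those of the other pairings at -0.20 to 0.25. Within a group of 3 lists such deviations offset each other, so these values cannot show which lists share an animal. The numbers were not used as pairs.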

Additional observations from a re-analysis of the deposited data

How the results depend on the processing

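The 0 calls among loci and among shared regions were kept under each alternative except 1: with 5 kb on either side of the gene, limma called 4 loci lower (G0s2, Tgfbr3l, Ly6e and Nap1l3, no identity gene among them). Alternatives covered a stricter q, equal numbers of peaks, each list left out, fragment-length class as a covariate, other filters, scales and ranks. With the replicate block limma again called 0 loci and 0 regions, in either direction. With equal numbers of top peaks, members with a marked promoter were 0.333 higher in 4xIOP, against -0.667 as reported. Leaving out 1 list gave -1.17 (without control replicate 1) to -0.167 (without control replicate 3), and covered length differed by -3735 to -647 bp. In the 2 lists whose carried name matches the label it differed by -7763 bp, with 1 list a group, and the scores of Slc6a9, Lhx1, Prox1 and Tfap2a differed by -0.10, -0.0023, -0.18 and -0.36.

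No member was called under any alternative, and these uncalled score differences changed sign. At the stricter q (5 on the −log10 scale), Tfap2a was 0.19, Prox1 0.067 and Lhx1 -0.095, and the Slc6a9 region at 20.0 kb -0.043. With equal numbers of peaks, Prox1 was 0.23, Lhx1 -0.28 and the Slc6a9 region at 10.2 kb 0.00072. With the covariate, Lhx1 was -0.12 and the Slc6a9 regions at 20.0, 10.2 and 4.33 kb -0.065, 0.11 and -0.021. With 5 kb, Slc6a9 was -0.14 and Lhx1 -0.11. Gad2, set by tied zeros, was -0.13 without a filter and -0.066 as log2 share, Slc6a9 -0.0085 without peaks at other genes, and Lhx1 -0.00082 with peaks in at least 3 lists. Leaving out 1 list moved Slc6a9 from -0.0029 to 0.19, Lhx1 from -0.16 to 0.13, and the Slc6a9 regions at 20.0, 10.2, 4.33 and 57.9 kb from -0.14 to 0.12, -0.24 to 0.28, -0.17 to 0.25 and -0.36 to 0.14. The cause was not tested. Depth limits calls to summits of about 9 fragments or more.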
